A study of Macaca mulatta with 10 samples.

Results

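Interleukin (IL)-10, transforming growth factor (TGF)-β1 and 8 cytokines of helper T cells were followed in RNA from flow-sorted type 1 regulatory T (Tr1) cells of rhesus macaques. The genes were the rows of the deposited count table named IL10, TGFB1, IFNG, TNF, IL2, IL4, IL5, IL21, IL17A and LTB, which are 10 of its 26484 genes. All 10 were found. The cells came from diabetic monkeys (Macaca mulatta) given islet allografts under short-term treatment with an anti-CD40 antibody, rapamycin, a soluble tumor necrosis factor (TNF) receptor and an anti-IL-6 receptor antibody. The 5 Cohort B monkeys (13EP12, 13EP8, 14HP26, 14HP31 and 15CP6) received no apoptotic donor leukocytes (ADLs), and the 5 Cohort C monkeys (13EP5, 14HP33, 14HP24, 15CP1 and 15CP4) received ADL infusions around transplantation, with 1 library per monkey. Frozen blood cells were thawed, rested overnight and sorted as CD4+CD49b+LAG-3+, with no stimulation named in the labels. By the labels the blood was collected at sacrifice, which followed rejection in monkeys without ADLs and the study end in those with them. On that account cohort and reason for sampling cannot be told apart. The study's own account differs from the labels on this for monkeys 13EP12, 13EP8 and 15CP1. It reports that some Cohort B monkeys kept their grafts long term, and that 15CP1 was not sacrificed at 1 year. The labels do not give ages.

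Tr1 cells are CD4+ T cells that suppress other immune cells largely through secreted IL-10, with TGF-β as a further suppressive factor. They are classically described as making IL-10 together with some interferon (IFN)-γ and IL-5, and little IL-2 or IL-4. T cells hold TGFB1 mRNA at rest and secrete its protein in a latent form, whereas most other cytokine mRNAs appear in quantity only after the T cell receptor is engaged and decay quickly.

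The depth differed widely between monkeys. Total counts per library ran from 6076 to 1392157 in Cohort B and from 66485 to 5895609 in Cohort C. Counts were scaled to CPM (counts relative to the normalized size of the library) with edgeR's TMM factors, and 3 counts were set as the floor below which a library could not show a gene. The floor equalled 2.60 CPM in 13EP12, 2.29 in 13EP8, 17.6 in 14HP26, 118 in 14HP31 and 6.62 in 15CP6. In Cohort C it equalled 0.932 CPM in 13EP5, 42.6 in 14HP33, 17.3 in 14HP24, 0.621 in 15CP1 and 18.7 in 15CP4. In monkey 14HP33, 87.0% of the 968423 counts fell on the MTRNR2L genes, a family of near-identical copies, and its TMM factor was 0.0727. The T cell list (12 genes, such as CD3E and LCK) was wholly above 3 counts in 13EP12, 13EP8, 13EP5 and 15CP1, and wholly at 0 in 14HP31. Of the genes for the sorted proteins, CD4 was above 3 counts in 6 libraries, while ITGA2, which encodes CD49b, and LAG3 were above 3 counts in 3 libraries.

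Of the 100 values that 10 cytokines in 10 libraries give, 13 lay above 3 counts, 3 lay between 1 and 3 counts and 84 were 0. The 13 values belonged to 5 genes, and TGFB1 held 98.2% of the 8688 counts on the 10 genes. TGFB1 was above 3 counts in 6 libraries, IFNG in 3, IL10 in 2, and IL5 and IL21 in 1 each. LTB had 2 counts in a single library, and TNF, IL2, IL4 and IL17A had none. Cohort B held 4 of the 13 values and Cohort C held 9, and 5 of these 9 came from monkey 15CP1, the deepest library. Over all genes, 163 to 9179 per library were above 3 counts in Cohort B (median 4212). In Cohort C the range was 679 to 13245 (median 2583), with 13245 in 15CP1. In 14HP26, 14HP31, 14HP33 and 15CP4 no cytokine was above 3 counts, and in these libraries 6, 7, 6 and 5 of 8 housekeeping genes were also at 0, while ACTB among them had 45, 0, 44 and 139 counts. With 14HP31 and 14HP33 left out, the same 13 values remained among 80.

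**Figure D1:**
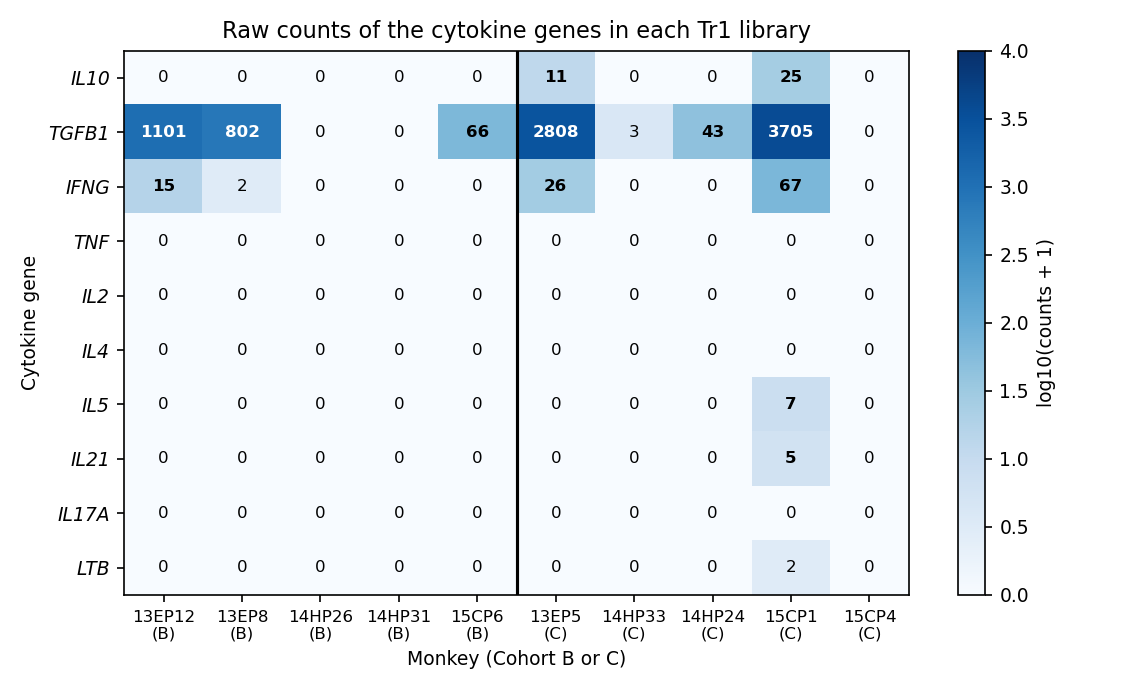
Raw counts of each cytokine gene (rows) in each monkey (columns), with Cohort B left and Cohort C right of the black line. Shading follows log10(counts + 1), and bold numbers are above 3 counts. TGFB1 fills 6 of the 13 bold cells, and 4 rows hold only 0.

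TGFB1, which encodes the latent cytokine TGF-β1, had the most counts of the cytokines, and its level did not separate the cohorts. It had 1101, 802, 0, 0 and 66 counts in Cohort B monkeys 13EP12, 13EP8, 14HP26, 14HP31 and 15CP6. In Cohort C monkeys 13EP5, 14HP33, 14HP24, 15CP1 and 15CP4 it had 2808, 3, 43, 3705 and 0 counts. Each cohort thus held 3 monkeys above 3 counts, and the ranges overlapped. In normalized CPM, with exact Poisson 95% intervals that cover counting error only, the order was 952 (897 to 1010) in 13EP12, 873 (841 to 906) in 13EP5, 766 (742 to 792) in 15CP1, 611 (570 to 655) in 13EP8, 247 (179 to 333) in 14HP24 and 146 (113 to 185) in 15CP6. The intervals of 13EP12 and 13EP5 overlapped, as did those of 14HP24 and 15CP6, while the other neighbours in this order lay apart by more than counting error. With 1 library per monkey, the spread within a monkey is unknown.

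On the log2(CPM + 1) scale TGFB1 was 5.27 ± 4.91 (SD, n = 5 monkeys) in Cohort B and 6.55 ± 4.05 (SD, n = 5) in Cohort C. Libraries with 0 counts entered as 0 whatever their floor, so these values and the permutation test also carry which libraries detected the gene. The difference of 1.28 did not exceed the spread between monkeys (exact permutation test, two-sided p = 0.690, smallest possible p = 0.00794). In edgeR's quasi-likelihood test its log2 fold change in Cohort C over Cohort B was 0.17 (standard error 1.87, adjusted p = 1.0). The sign of this value turned negative when any of 14HP26, 14HP31, 15CP6, 13EP5 or 15CP1 was left out (-0.51 to -0.14), so no direction can be given. The 4 libraries at or below 3 counts would have held between 17.5 and 117 counts at the median level of the 6 libraries above it (689 CPM), and they held 0 to 3. With library size in place of TMM, the expected counts were 78.5 in 14HP26, 4.19 in 14HP31, 667 in 14HP33 and 45.8 in 15CP4, so for 14HP31 the expectation was close to the floor. Most housekeeping genes were also at 0 in these libraries, and the cause was not tested.

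TGFB1 was also set against T cell genes of the same library. Per 100 counts on the 12 T cell genes, it had 46.0 counts in 13EP12, 33.3 in 13EP8 and 8.65 in 15CP6, beside 47.3 in 13EP5, 53.8 in 14HP24 and 33.7 in 15CP1. Monkey 15CP6 was the lowest, and the other 5 lay within 33.3 to 53.8 across both cohorts. In the libraries at 3 TGFB1 counts or fewer, the T cell genes held 69 counts in 14HP26, 0 in 14HP31, 20 in 14HP33 and 13 in 15CP4, beside 0, 0, 3 and 0 counts of TGFB1. The libraries with TGFB1 above 3 counts were also the 6 with CD4 above 3 counts. TGFB1 is also expressed by platelets and monocytes. Of 6 platelet genes, 5 were above 3 counts in 13EP5, where they summed to 280 CPM, and the sums ran from 0 to 22.5 CPM in Cohort B and from 0 to 280 CPM in Cohort C, with GP9 at 0 in all libraries. The 11 monocyte genes summed to between 0 and 1629 CPM in Cohort B and between 0 and 1609 CPM in Cohort C. Of these, 10 were above 3 counts in 13EP12, 10 in 13EP8 and 6 in 15CP6, beside 7 in 13EP5, 4 in 14HP24 and 11 in 15CP1. The part of platelets and monocytes in the TGFB1 level was not tested. Since RNA of a whole sorted sample was sequenced, fewer cells of a type and less RNA per cell cannot be told apart.

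**Figure D2:**
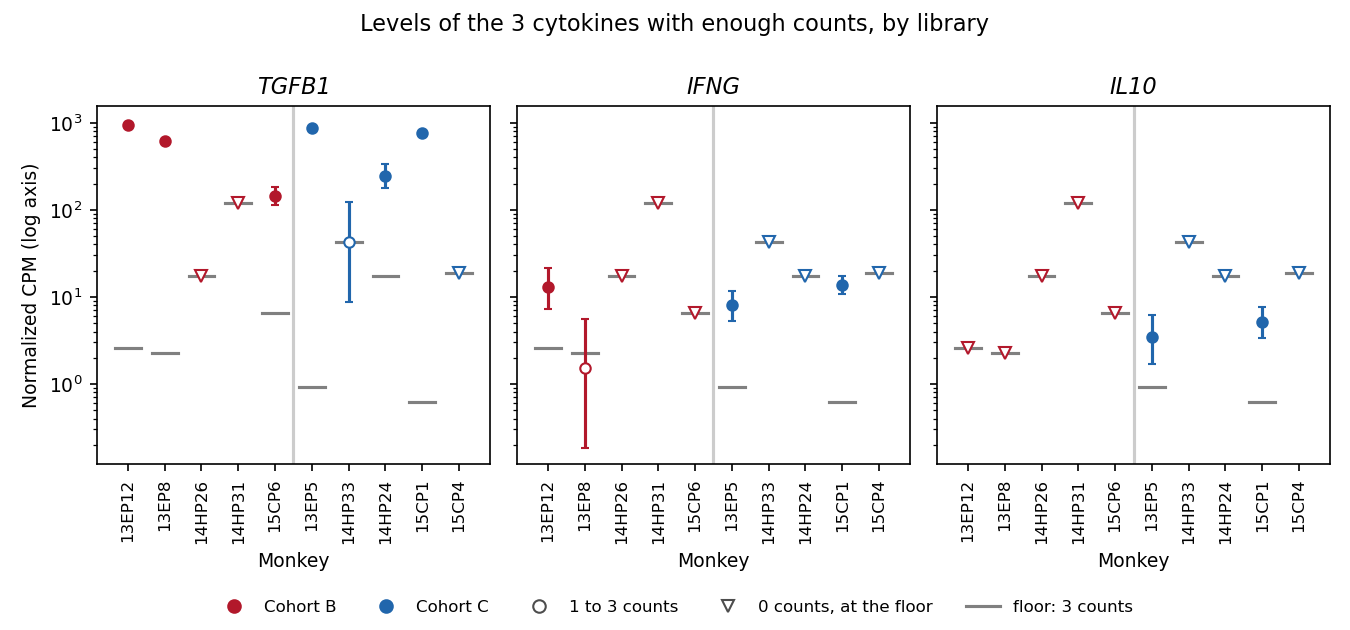
Normalized CPM (log axis) of TGFB1, IFNG and IL10 by monkey, Cohort B in red and Cohort C in blue. Filled points are above 3 counts with exact Poisson 95% intervals, open circles are 1 to 3 counts, grey lines mark the CPM of 3 counts, and open triangles put a value of 0 at that floor. TGFB1 stood far above the floor in 6 monkeys, and IL10 in 13EP5 and 15CP1 lay near the floors of the deeper Cohort B libraries.

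IL10, the cytokine through which Tr1 cells are best known to act, was detected in 2 of 5 Cohort C monkeys and in none of Cohort B. It had 11 counts in 13EP5 and 25 in 15CP1, the 2 deepest libraries, and 0 in the other 8. These equalled 3.42 CPM (1.71 to 6.12) and 5.17 CPM (3.35 to 7.63). The cohorts overlapped, since 3 Cohort C monkeys had 0 counts as did all of Cohort B. Pooled over the libraries, IL10 was 4.26 CPM in Cohort C, while 3 counts in each Cohort B library would pool to 4.81 CPM, so the floors set no lower bound on a fold change. At the median level of 13EP5 and 15CP1, monkeys 13EP12 and 13EP8 would have held 4.97 and 5.63 counts, and both held 0. With TMM the remaining 6 libraries would have held at most 1.95 counts and on that scale could not have shown this level. With library size in place of TMM, 14HP33 would have held 4.16 counts, and it held 0.

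In edgeR's quasi-likelihood test the log2 fold change of IL10 was 4.48 (standard error 1.91, unadjusted p = 0.0191, adjusted p = 0.151), a fitted value that depends on the prior count. It missed both the call rule (at least 1.5-fold at p under 0.01 before adjustment) and an adjusted p under 0.05. Its direction was kept in all 21 alternatives that could fit it, with values from 1.75 to 5.01 and adjusted p from 0.124 to 1.0. With Cohort B at 0 throughout, the sign rested on 13EP5 and 15CP1. No alternative left out both, so the kept direction was largely fixed in advance. No permutation test was run, since IL10 was above 3 counts in fewer than 3 libraries. Monocyte and B cell genes, which mark other cells able to make IL-10, were present in both libraries, with 3 of 7 B cell genes above 3 counts in 13EP5 and 7 of 7 in 15CP1. They were also present in 13EP12 and 13EP8, where IL10 was at 0. The monocyte genes summed to 321 CPM in 13EP5 and 1609 in 15CP1, beside 1629 in 13EP12 and 1461 in 13EP8. For the B cell genes these sums were 32.3 and 86.5 CPM, beside 56.2 and 80.1. The B cell genes summed to between 26.5 and 80.1 CPM in Cohort B and between 0 and 86.5 CPM in Cohort C. The part of either cell type in the IL10 counts was not tested.

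IFNG, which encodes the T helper 1 cytokine IFN-γ, was found in both cohorts, with overlapping counting intervals in the 3 libraries above the floor. Among Cohort B it had 15 counts in 13EP12, 2 in 13EP8 and 0 in the other 3. In Cohort C it had 26 counts in 13EP5, 67 in 15CP1 and 0 in the other 3. The levels above the floor were 13.0 CPM (7.26 to 21.4) in 13EP12, 8.08 CPM (5.28 to 11.8) in 13EP5 and 13.9 CPM (10.7 to 17.6) in 15CP1, with the ranges of the cohorts overlapping. At the median of these 3, monkey 13EP8 would have held 17.0 counts and had 2, and monkey 15CP6 would have held 5.88 and had 0. Per 100 T cell counts IFNG had 0.626 counts in 13EP12, 0.438 in 13EP5 and 0.609 in 15CP1.

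On the log2(CPM + 1) scale IFNG was 1.03 ± 1.66 (SD, n = 5) in Cohort B and 1.42 ± 1.95 (SD, n = 5) in Cohort C. Libraries with 0 counts entered as 0 whatever their floor, so the means, SDs and permutation test also carry differences in depth. At the median level of the 3 libraries above the floor, 14HP26, 14HP31, 14HP33, 14HP24 and 15CP4 would have held 0.329 to 2.25 counts with TMM. On that scale their 0 could not show that level. With library size in place of TMM, 14HP33 would have held 12.6 counts, and it held 0. The difference of 0.39 did not exceed the spread between monkeys (exact permutation test, two-sided p = 0.841). By edgeR its fold change in Cohort C on the log2 scale was 0.50 (standard error 1.87, adjusted p = 1.0), and it was -0.43 without 15CP1 and 2.77 without 13EP12. IFNG, ITGA2 and LAG3 were above 3 counts in the same 3 libraries. Cytotoxic T and NK cells also make IFN-γ. Of the 8 genes listed for them, 6 were above 3 counts in 13EP12, 5 in 13EP5 and 8 in 15CP1. In 13EP8, with 2 IFNG counts, 5 of the 8 were above 3 counts, and in 15CP6, with 0, 2 were. They summed to 266, 39.2 and 129 CPM in 13EP12, 13EP5 and 15CP1, beside 117 in 13EP8 and 150 in 15CP6. The sums ran from 0 to 266 CPM in Cohort B and from 0 to 129 CPM in Cohort C. The part of these cells in the IFNG counts was not tested. The antisense gene IFNG-AS1 had 3 counts in 13EP8, 7 in 13EP5 and 29 in 15CP1. The library kit marks strand, but the strand setting of the counting is not given in the sources used here, so whether reads passed between the 2 genes is unknown.

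IL5 and IL21 were each seen in 15CP1 only. IL5, a T helper 2 cytokine that acts on eosinophils, had 7 counts there, or 1.45 CPM (0.582 to 2.98). IL21, which helps B cells and is made by follicular helper T cells, had 5 counts, or 1.03 CPM (0.336 to 2.41), beside 1 count on IL21-AS1. At these levels 13EP5 would have held 4.66 counts of IL5 and 3.33 of IL21, and it held 0 of both. No other library was deep enough to give more than 3 counts. LTB, which encodes the membrane anchor of lymphotoxin and is usually abundant in resting T cells, had 2 counts, all in 15CP1.

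IL2 (the T cell growth factor), IL4 (the defining T helper 2 cytokine) and IL17A (that of T helper 17 cells) had 0 counts in all 10 libraries, as did TNF, an inflammatory cytokine. For IL2, IL4 and IL17A the floor allows up to 0.621 CPM in 15CP1 and 0.932 CPM in 13EP5, and up to 118 CPM in 14HP31. IL2, IL4 and IL17A were not detected, and whether depth was the reason was not tested. None of the 4, and neither IL5, IL21 nor LTB, reached the 10 summed counts needed for the fit, so 7 of the 10 cytokines were not tested between the cohorts.

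For TNF and LTB the zeros extended to the genes around them. Neighbours came from the rhesus gene order of NCBI RefSeq (assembly T2T-MMU8v2.0, which is not the genome the reads were mapped to). They were the 15 nearest protein-coding genes on either side of each cytokine whose symbol also occurs among the counted genes. Genes without a matching symbol were passed over. The comparison was chosen after the counts had been seen. In 15CP1, 66.1% of 16520 protein-coding genes were above 3 counts, but only 1 of the 30 neighbours of TNF and 1 of the 30 of LTB were. In any library these were 2 and 2 of 30, beside 75.9% of all such genes. The exceptions were BAG6, with 12 counts summed over the libraries, and NFKBIL1, with 65. Both TNF and LTB lie in the class III region of the major histocompatibility complex, between the class I and class II genes. Neighbours at 0 in all libraries included DDX39B, CSNK2B and PRRC2A, which most cell types express. The reads had been mapped to the human genome. The cause of the low counts across this region was not tested, and the values of TNF and LTB cannot be read as levels in the cells.

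The neighbours of the other cytokines were detected more often. In 15CP1, 27 of 30 neighbours of IFNG, 22 of IL10, 20 of TGFB1, 20 of IL2, 19 of IL4, 17 of IL5, 19 of IL21 and 9 of IL17A were above 3 counts. IL2 and IL4 stood at 0 among neighbours detected at about the share of all genes. Neighbours cannot show whether reads of a single gene were mapped and counted, and this was not tested. IL17A stood at 0 where 9 of 30 neighbours passed 3 counts and 15 were at 0 throughout.

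**Figure D3:**
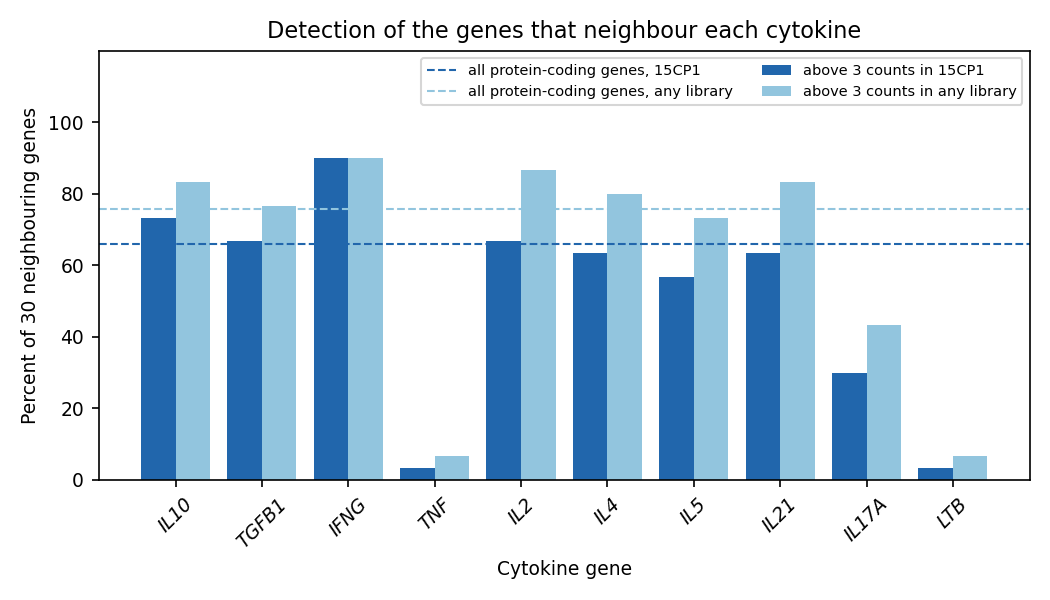
Percent of the 30 protein-coding genes matched by symbol and nearest each cytokine that were above 3 counts in 15CP1 (dark bars) or in any library (light bars). Dashed lines are for all 16520 protein-coding genes matched (66.1% and 75.9%). The bars of TNF and LTB are near 0, and the bars of IL17A are the next lowest.

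Read against the whole table, the 3 cytokines tested gave no call. Of 14168 genes, edgeR's quasi-likelihood test called 911 that changed at least 1.5-fold at p under 0.01 before adjustment (6.43%), and 0 (0%) at an adjusted p under 0.05, with 2923 (20.6%) at an unadjusted p under 0.05. Of the cytokines 0 of 3 were called by either rule, and 1 of 3, IL10, had an unadjusted p under 0.05. All 3 log2 fold changes were positive in this fit, with a median of 0.50, beside a median of 0.16 over all genes tested. With IL10 set to its ratio to the Cohort B floors (-0.18 on the log2 scale), the median of the 3 was 0.17. The cytokines called stayed at 0 in all 22 alternatives.

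**Figure D4:**
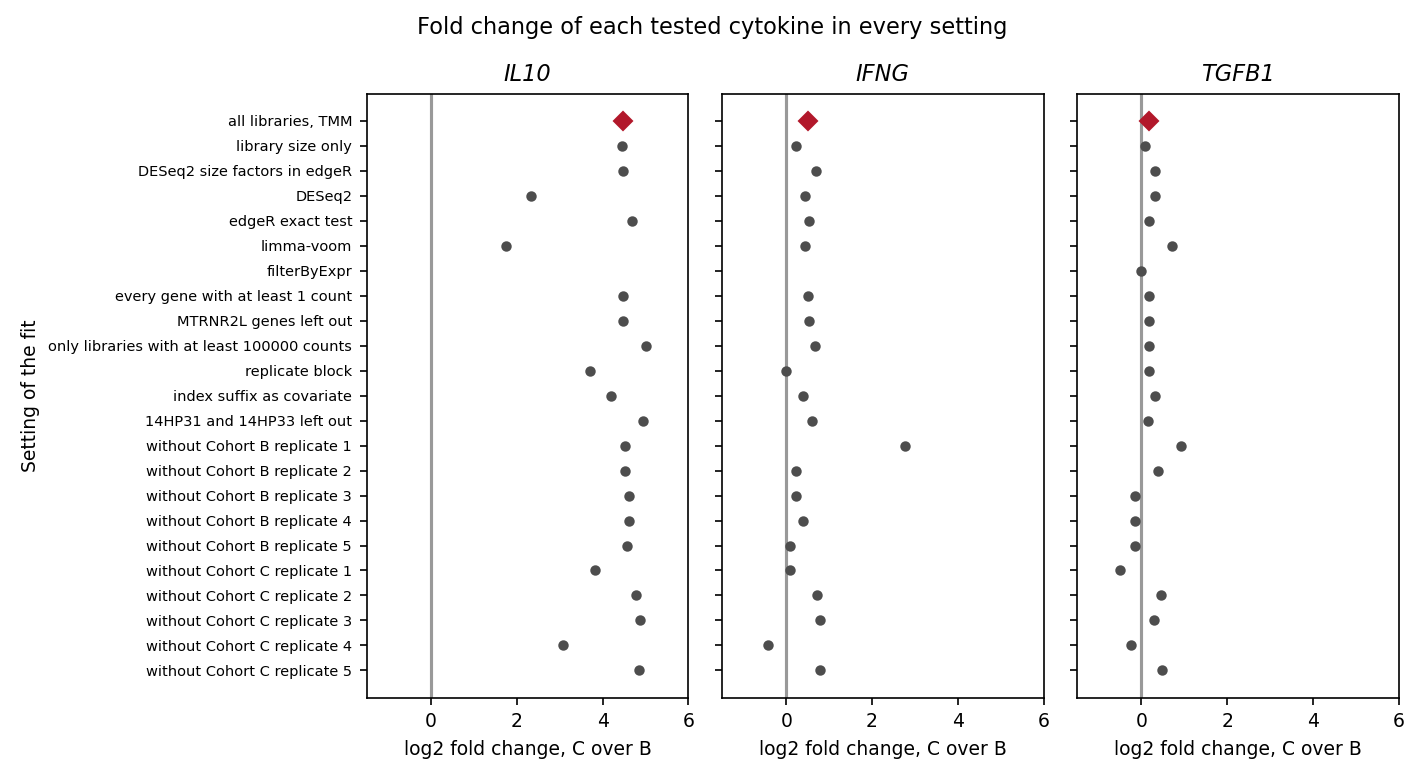
Log2 fold change in Cohort C over Cohort B (x axis) of IL10, IFNG and TGFB1 under each setting of the fit (y axis), with the diamond for all libraries with TMM and edgeR's quasi-likelihood test. IL10, with 0 counts in all of Cohort B, lay between 1.75 and 5.01. IL10 and IFNG have no value under filterByExpr, and IFNG and TGFB1 lay on both sides of 0.

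The deposited FPKM values, which are per length and so allow genes to be compared, placed TGFB1 highest. In 15CP1 it had 327 FPKM, beside 10.97 for IFNG and 1.57 for IL10, which lay at the 97.4, 63.3 and 25.5 percentiles of the genes with an FPKM above 0 there. The other 7 cytokines were listed at 0 in every library. Of the 13 values above 3 counts, 4 were listed at 0 FPKM: IL10 in 13EP5, IFNG in 13EP12, and IL5 and IL21 in 15CP1. In each library 13.4 to 40.1% of genes above 3 counts were listed at 0 FPKM, so an FPKM of 0 was no evidence of absence.

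TGFB1 was 383, 287 and 34.6 FPKM in 13EP12, 13EP8 and 15CP6, and 2677, 44.1 and 327 FPKM in 13EP5, 14HP24 and 15CP1. Monkey 13EP5 was far above the others in FPKM, but not in CPM. Its TGFB1 was 6.99 times that of 13EP12 in FPKM and 0.916 times in CPM. Over the 5225 genes above 3 counts and above 0 FPKM in both libraries, the median ratio was 7.99 in FPKM and 1.03 in CPM, so the median gene showed a gap between the units of a like size. IFNG was listed at 74.0 FPKM in 13EP5 and at 10.97 in 15CP1, the reverse of their order in CPM. Limma on log2(FPKM + 1) called 0 of 10307 genes (0%) at an adjusted p under 0.05 with more than 1.4-fold, and 29 of them had p under 0.05 before adjustment. The log2 differences, which understate low genes, were 1.96 for IFNG (standard error 1.35) and 0.67 for TGFB1 (standard error 2.32), both with an adjusted p of 0.992.

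**Figure D5:**
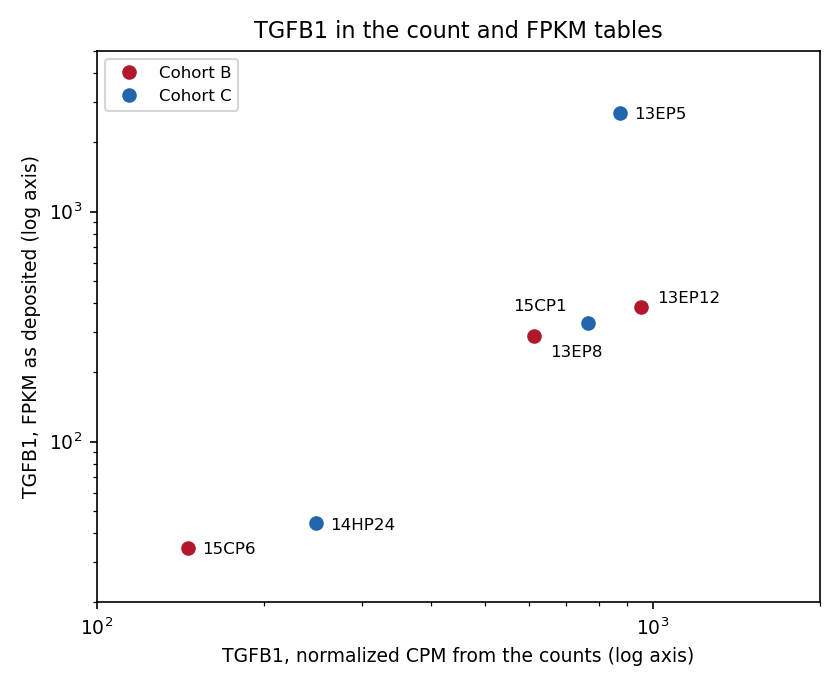
TGFB1 in the 6 libraries above 3 counts, as normalized CPM from the counts (x axis) and as deposited FPKM (y axis), both on log axes, with Cohort B in red and Cohort C in blue. In FPKM 13EP5 stands at 2677, and in CPM it lies between 15CP1 and 13EP12.

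The other genes of these pathways were read from lists of related cytokines, chemokines, receptors, TGF-β signaling and regulators. Over 5 lists of 113 genes, 83 were tested and 1 was called (1.20%), beside the 6.43% of all genes. Of 39 other cytokines, 24 were above 3 counts in some library and 0 of the 20 tested were called, with 8 higher and 12 lower in Cohort C and a median log2 fold change of -0.52. The most abundant were IL16, a chemoattractant for CD4+ cells, TNFSF8, the ligand of CD30, and CD40LG, through which T cells help B cells. CD40LG had 80 and 89 counts in 13EP12 and 13EP8, and 141, 5 and 540 in 13EP5, 14HP33 and 15CP1, with 0 elsewhere (log2 fold change 0.65, standard error 2.06, edgeR adjusted p = 1.0). Of 9 T cell chemokines, 6 were at 0 in all libraries, among them CCL5, CCL4 and CCL3, named after their values were seen. CXCL8, a neutrophil attractant that monocytes make in quantity, was the exception, with 196 and 648 counts in 13EP12 and 13EP8 and 14 and 1682 in 13EP5 and 15CP1. XCL2 had 8 counts in 13EP5 and CXCL10 had 5 in 15CP1. Whether reads of the 6 chemokines at 0 were mapped and counted was not tested, so these zeros cannot be read as absence.

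Of 20 receptor genes, 18 were above 3 counts in some library, and 0 of the 18 tested were called, 12 being higher and 6 lower in Cohort C (median log2 fold change 0.26). IL2RG, the chain shared by the receptors for IL-2, IL-4 and IL-21, had 331, 265 and 41 counts in 13EP12, 13EP8 and 15CP6, and 808, 21 and 1481 in 13EP5, 14HP24 and 15CP1. TGFBR2 and TGFBR3, which bind TGF-β, were the next most abundant and were above 3 counts in the same number of libraries, 6. Their log2 fold changes were 0.74 (standard error 2.0) and 0.68 (standard error 2.01), each with an edgeR adjusted p of 1.0.

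Of 15 genes of TGF-β release and signaling, 14 were tested, with a median log2 fold change of 0.20. THBS1, which can activate latent TGF-β, had 265 and 388 counts in 13EP12 and 13EP8 and 1337 and 1253 in 13EP5 and 15CP1. SMAD3, which carries the signal to the nucleus, and SKI, which restrains it, were each above 3 counts in 5 libraries and were not called. The 1 gene called was ITGB8, an integrin chain that releases active TGF-β, which was lower in Cohort C (log2 fold change -7.39, standard error 2.68, unadjusted p = 0.00579, edgeR adjusted p = 0.141). It rested on 7 counts in 13EP12 and 14 in 14HP26, with 0 elsewhere. LRRC32, which tethers latent TGF-β to the cell surface, was at 0 in all libraries. Whether its reads were mapped and counted was not tested.

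Of 30 regulators of cytokine transcription and mRNA decay, all were tested and 0 were called, 16 being higher and 14 lower (median log2 fold change 0.05). ZFP36 and ZFP36L2, which speed the decay of cytokine mRNAs, and IRF1, a factor of the IFN-γ response, were the most abundant. ZFP36 had 577, 758, 3, 0 and 268 counts in Cohort B and 3608, 0, 83, 3773 and 4 in Cohort C, in the order of the monkeys above. On the log2 scale its fold change was 0.51 (standard error 1.87, edgeR adjusted p = 1.0).

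The genes whose pattern over the 10 libraries was most like that of TGFB1, by Pearson's r of log2(CPM + 1) among 9685 other genes, were GNAI2 (r = 0.998), a G protein subunit, FGL2 (r = 0.997), a fibrinogen-like protein that T cells can secrete, and RPLP1 (r = 0.996), a ribosomal protein. Such likeness was common, with 464 genes above 0.9. For IFNG they were MDH1 (r = 1.0), CD151 (r = 0.999) and BTF3L4 (r = 0.999), with 1482 genes above 0.9. The libraries share their depth and their zeros across genes, and whether these values hold anything beyond that was not tested.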

How the data were processed

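RNA was extracted from sorted Tr1 cells and made into stranded libraries. The authors mapped the reads to human hg38 with HISAT2 2.0.2 and deposited raw counts per gene. FPKM values per gene came from Cuffdiff 2.2.1 and were also deposited by the authors. Counting options were not given in the sources used here. No sequence or genome was used.

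Cohorts were taken from the labels. Counts were fitted with edgeR 4.0.16 (R 4.3.3), with TMM factors and the quasi-likelihood test, over genes with at least 10 summed counts, and p-values were adjusted by Benjamini-Hochberg over all of them. Limma 3.58.1 was applied to log2(FPKM + 1) of the genes whose FPKM averaged 1 or more. Two-sided exact permutation tests (scipy 1.17.1) covered the 2 cytokines above 3 counts in at least 3 libraries. DESeq2 1.42.0 was an alternative. All 10 cytokines were named, with the 3 most abundant genes and any called gene of each list. For markers, genes with the most counts and those at 0 were named, and for TGFB1 and IFNG the 3 most similar genes. The members and lists were chosen with earlier results of these data known. Intervals, floors and p-values cover only counting error or the spread between these libraries. Gene names occurring more than once (2) were left out of the descriptions by gene, and were kept as separate rows in the fits.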

Additional observations from a re-analysis of the deposited data

How the results depend on the processing

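The cytokines called stayed at 0 under each alternative for the counts and for FPKM, and the values above 3 counts (13) became 16 at 1 count or more and 11 above 10 counts. The number of all genes called moved from 911 to 563 with DESeq2's size factors, 22 with DESeq2, 341 with edgeR's exact test, 67 with limma-voom, 10 with filterByExpr, 326 with only libraries of at least 100000 counts, 98 with the index suffix as a covariate and 263 without 14HP31 and 14HP33, a choice made after seeing the data. Leaving out each replicate in turn gave 76 to 698, lowest without 13EP5 and next without 15CP1 (143), and 515 to 597 without 13EP8, 14HP26, 15CP6, 14HP33 or 14HP24. With the replicate block 0 genes were called (9 had p under 0.05 before adjustment) and the log2 fold change of IFNG was -0.014. The numbers mark different monkeys, and the deviations of same-numbered libraries correlated between -0.43 and 0.38, so they share only a number. With filterByExpr only TGFB1 was left, and its log2 fold change, then also the median over cytokines, was -0.015. Leaving out each replicate in turn gave -0.51 to 0.91 for TGFB1, -0.43 to 2.77 for IFNG and -0.24 to 2.77 for the median, the last highest without 13EP12. In the permutation tests these differences ran from -0.036 to 2.92 for TGFB1 and from -0.23 to 1.08 for IFNG, and in FPKM from -0.92 to 1.93 for TGFB1. The median log2 fold change of all genes was 0.16 with TMM, -0.10 with library size only and 0.34 with DESeq2's size factors. The cause of these shifts was not tested. Depth limits what a count of 0 can show outside 13EP5 and 15CP1.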

Other observations

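These genes were chosen after their values were seen and are given as counts, with no test between the cohorts beyond those above. IL13, a T helper 2 cytokine that lies beside IL4 and IL5, had 30 counts in Cohort B monkey 13EP8 and 7 in Cohort C monkey 15CP1, and 0 in the other 8 libraries, while IL4 had none and IL5 only the 7 counts in 15CP1. MAF, which promotes IL-10 production, had 259, 318, 1, 0 and 29 counts in Cohort B and 809, 0, 51, 1073 and 0 in Cohort C. It was thus above 3 counts in 13EP12, 13EP8 and 15CP6 of Cohort B and in 14HP24 of Cohort C, where IL10 was at 0. At the IL10 level of 13EP5 and 15CP1, 15CP6 would have held 1.95 IL10 counts and 14HP24 0.746. A 0 in these libraries could not show that level. GATA3, the T helper 2 factor, had 16 and 54 counts in 13EP12 and 13EP8 and 382, 21 and 440 in 13EP5, 14HP24 and 15CP1. TBX21, the T helper 1 factor, had 4 and 69 counts in 13EP12 and 13EP8 and 45, 12, 213 and 20 in 13EP5, 14HP24, 15CP1 and 15CP4. In 13EP8 it was well above the floor while IFNG had 2 counts.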
